A study of Arabidopsis thaliana with 6 samples.

Results

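The data describe the transcripts of 10 nuclear genes for the protein import machinery of mitochondria, out of 32744 genes counted in Arabidopsis seedlings. The genes were taken by locus identifier: TOM20-2 (AT1G27390), TOM20-3 (AT3G27080), TOM20-4 (AT5G40930), TOM40-1 (AT3G20000), TOM22-V (AT5G43970), TIM17-1 (AT1G20350), TIM17-2 (AT2G37410), TIM23-2 (AT1G72750), TIM44-2 (AT2G36070) and TOC64-V (AT5G09420), also called OM64. All 10 were present in the tables and passed the filter on low counts. RNA of untreated seedlings at Boyes growth stage 1.04, depleted of ribosomal RNA, was sequenced in 3 libraries of wild-type plants and in 3 libraries whose genotype label is double mutant AT4G15640-AT3G21465. The seedlings were grown on media, the sample titles call the mutant mtran1-2-2-1, and the series text calls it a knock out. The labels do not explain that name or say whether several lines were used or how many plants went into a library.

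Most mitochondrial proteins are encoded in the nucleus, made in the cytosol and carried into the organelle. They are recognised by receptors at the outer membrane and pass through the TOM complex, whose channel is TOM40. Proteins with a cleavable presequence then pass the inner membrane through TIM17 and TIM23 and are pulled in by a motor of mtHSP70, its exchange factor MGE1 and the tether TIM44. Plants have a TOM20 receptor of their own, unrelated in ancestry to that of animals and fungi, and a shortened TOM22, named TOM9 in some annotations. They also have OM64, a mitochondrial relative of the chloroplast receptor TOC64.

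Total counts were between 53193772 and 77446157 in the wild-type libraries and between 62235559 and 78671470 in the libraries labelled double mutant. Mitochondrially encoded transcripts took 1.56% to 1.71% of counts in wild type and 4.25% to 4.64% in the labelled mutant libraries. Plastid transcripts took 55.2% to 57.3% in wild type and 44.1% to 49.0% in the labelled mutant libraries. The nuclear share was 41.0% to 43.3% in wild type and 46.7% to 51.3% in the labelled mutant libraries. Levels compared between libraries therefore depend on the scaling. Of the targeted genes, AT3G21465 was lower in the labelled mutant libraries (log2 fold change -0.78 ± 0.08, SE; adjusted p by edgeR = 8.95e-05), whereas AT4G15640 was not (0.16 ± 0.08, SE; adjusted p by edgeR = 0.121). The transcript of AT4G15640 was thus not reduced, and directions below are those of the libraries by label. The summed level of 3 shoot markers was 9255 to 10990 CPM (counts per 1000000 after scaling by edgeR's TMM method) in wild type and 5740 to 6623 CPM in the labelled mutant libraries, with RBCS1A and RCA called lower. The summed level of 4 root hair markers was 7.998 to 14.95 CPM in wild type and 6.37 to 7.73 CPM in the labelled mutant libraries, with COBL9 and PRP3 called lower. The 4 flower markers summed to at most 0.413 CPM and the 4 seed markers to at most 4.59 CPM in any library, and 3 of the flower and 2 of the seed markers had no count in at least 1 library. The part of cell composition in the differences below was not tested; in whole seedlings fewer cells of a type and less RNA per cell cannot be told apart.

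Of the 10 import genes, 3 were higher in the labelled mutant libraries and 1 was lower at an edgeR adjusted p under 0.05, and 6 did not pass. The higher genes were TOC64-V, TIM17-2 and TOM20-4, and the lower gene was TOM22-V. These 4 called genes (40.0%) stand against 52.4% of all 21805 tested genes called in either direction, 26.3% as higher and 26.0% as lower, so the import genes were not called more often than genes at large. The same 4 genes were those whose groups did not overlap, where 61.8% of all tested genes had no overlap, 32.1% as higher and 29.8% as lower. The log2 fold changes of the 10 genes lay between -0.22 and 0.61, with a median of 0.13, against 0.01 for all tested genes. Their median size without regard to sign was 0.18, and that of all tested genes was 0.31. None of the 10 changed by more than 2-fold.

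The 250 bases before the first base of each gene were read on the TAIR10 coordinates of the deposited tables for the 4 genes that passed the test, to show what stands before genes that moved. The letters are from the RefSeq TAIR10.1 genome, given 5′ to 3′ in the direction of transcription. Capitals mark site II elements (TGGGCC or TGGGCT on either strand), short promoter elements known from many plant genes for mitochondrial and ribosomal proteins.
TOC64-V, chr5:2927923-2928172, plus strand: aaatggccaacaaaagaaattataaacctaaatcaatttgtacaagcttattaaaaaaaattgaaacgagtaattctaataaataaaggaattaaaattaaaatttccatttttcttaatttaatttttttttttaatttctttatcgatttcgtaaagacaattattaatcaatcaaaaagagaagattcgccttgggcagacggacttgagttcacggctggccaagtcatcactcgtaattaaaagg
TIM17-2, chr2:15699355-15699604, minus strand: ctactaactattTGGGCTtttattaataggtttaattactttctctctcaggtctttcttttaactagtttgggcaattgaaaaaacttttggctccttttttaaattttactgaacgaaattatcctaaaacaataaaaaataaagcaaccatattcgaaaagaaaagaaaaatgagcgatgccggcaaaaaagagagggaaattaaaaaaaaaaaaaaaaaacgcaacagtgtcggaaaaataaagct
TOM20-4, chr5:16404207-16404456, plus strand: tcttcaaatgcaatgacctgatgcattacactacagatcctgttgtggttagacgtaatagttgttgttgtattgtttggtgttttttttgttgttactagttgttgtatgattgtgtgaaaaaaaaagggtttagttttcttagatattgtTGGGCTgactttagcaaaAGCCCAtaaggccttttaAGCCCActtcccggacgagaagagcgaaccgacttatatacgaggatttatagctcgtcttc
TOM22-V, chr5:17692536-17692785, plus strand: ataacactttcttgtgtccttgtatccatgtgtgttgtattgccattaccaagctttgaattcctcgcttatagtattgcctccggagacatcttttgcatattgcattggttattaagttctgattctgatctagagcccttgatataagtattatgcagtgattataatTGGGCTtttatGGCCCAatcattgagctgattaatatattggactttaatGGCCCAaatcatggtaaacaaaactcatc

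TOM20-4, which was higher, and TOM22-V, which was lower, each had 3 site II matches, and TOC64-V, the gene with the largest fold change of the 10, had none. In TOM20-4 the matches ended 57, 75 and 93 bases before the gene, and in TOM22-V 24, 63 and 74 bases before it. TIM17-2 had a single match, 233 bases before the gene. Over all 10 genes, 6 had at least 1 match and 4 had at least 2. The others with a match were TOM20-2 (25 and 34 bases before the gene), TIM17-1 (25 and 35 bases) and TIM44-2 (21 bases). Windows of the same length before 27431 nuclear protein-coding genes held at least 1 match in 19.2% of cases and at least 2 in 12.0%. Among those of them that were tested, the shares were 21.7% and 14.2%. In the wider list of 45 import genes described below, 42.2% had at least 1 match and 12 genes had at least 2. Matches on both strands were counted, so that overlapping matches on opposite strands count separately. The mitochondrial dysfunction motif, a binding sequence of stress-related NAC transcription factors, was searched on both strands. It was in 1.2% of the 27431 windows, in none of the 10 and in 3 of the 45 windows of the wider list. Part of the window lay in an exon of a neighbouring gene for TOM20-2, TOM40-1, TIM17-1 and TIM44-2. A match is a description of letters and not a binding site, and the absence of one concerns this window alone. Whether matches go with the calls was not tested.

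**Figure D1:**
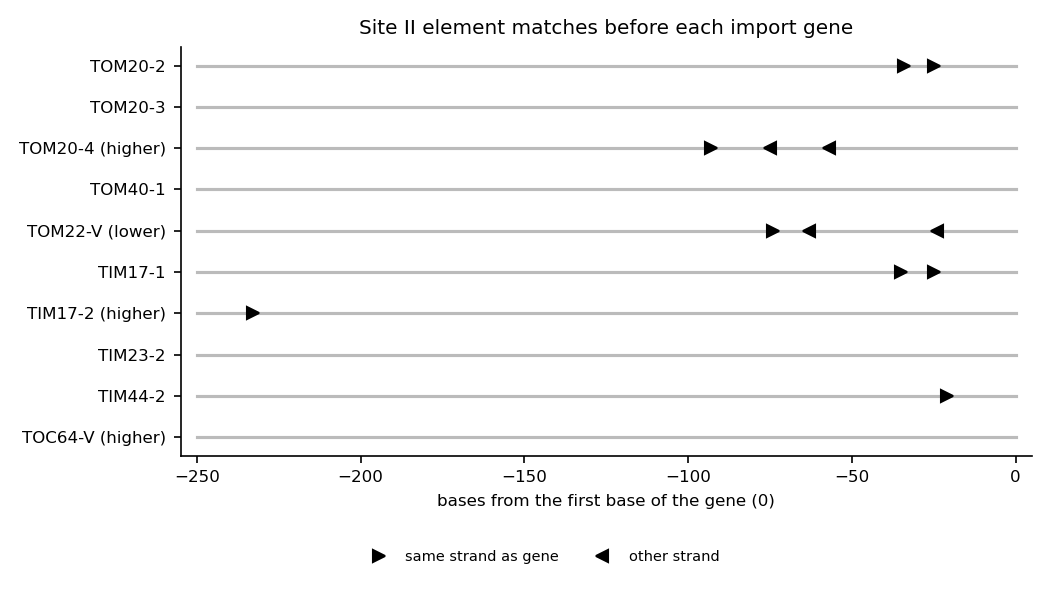
Site II element matches in the 250 bases before each of the 10 import genes. The x axis is the distance in bases from the first base of the gene, arrowheads point to the right for a match on the strand of the gene and to the left for a match on the other strand, and the words higher and lower give the edgeR call. TOM20-4, called higher, and TOM22-V, called lower, each have 3 matches, and TOM20-3, TOM40-1, TIM23-2 and TOC64-V have none. Any relation between matches and calls was not tested.

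At the outer membrane, the receptors were examined first. TOC64-V (chromosome 5, 2928173 to 2932021, plus strand, 13 exons), the OM64 receptor, had 5.68, 6.21 and 5.87 CPM in wild type and 8.66, 8.73 and 9.83 CPM in the labelled mutant libraries. Every labelled mutant library was above every wild-type library. The mean rose from 5.92 ± 0.267 to 9.07 ± 0.653 CPM (SD, n = 3 each), a 1.53-fold difference with a log2 fold change of 0.61 ± 0.08 (SE; adjusted p by edgeR = 0.000274). TOC64-V shares 59 exon bases on the same strand with AT5G09430, and reads in that stretch were assigned to neither gene. AT5G09430 was low, with 13 to 25 counts per library, and did not pass the test (log2 fold change -0.18; edgeR adjusted p = 0.692).

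TOM20-4 (chromosome 5, 16404457 to 16406079, plus strand, 5 exons), a presequence receptor, had 9.75, 9.79 and 8.19 CPM in wild type and 12.4, 11.4 and 12.6 CPM in the labelled mutant libraries. The groups did not overlap. The log2 difference came to 0.395 ± 0.09 (SE; adjusted p by edgeR = 0.0048), a rise of 31.5%. The other TOM20 receptors among the 10 did not pass. TOM20-3 (chromosome 3, 9984947 to 9986738, minus strand, 6 exons) had 10.7, 12.1 and 9.59 CPM against 11.8, 12.2 and 12.3 CPM, with the highest wild-type library between labelled mutant libraries. Its log2 fold change was 0.16 with a 95% interval of -0.04 to 0.36 (edgeR adjusted p = 0.15), and it passed as higher without wild type replicate 2 (0.25; edgeR adjusted p = 0.0297). Without wild type replicate 3 its value was 0.08 (edgeR adjusted p = 0.436). TOM20-2 (chromosome 1, 9513081 to 9515050, minus strand, 6 exons) had 16.8, 19.5 and 17.2 CPM against 17.6, 19.5 and 19.9 CPM. The groups overlapped, and the log2 fold change was 0.09 with a 95% interval of -0.09 to 0.27 (edgeR adjusted p = 0.356). Leaving out single libraries gave values from 0.05 (wild type replicate 1) to 0.16 (wild type replicate 2).

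TOM22-V (chromosome 5, 17692786 to 17693481, plus strand, 1 exon), the shortened plant counterpart of a subunit that organises the TOM complex in yeast, had 14.3, 14.8 and 13.2 CPM in wild type and 12.0, 12.1 and 12.3 CPM in the labelled mutant libraries. Every labelled mutant library was below every wild-type library, and the labelled mutant libraries lay close together. The log2 difference came to -0.22 ± 0.065 (SE; adjusted p by edgeR = 0.0202), a fall of 14.0% that did not pass without wild type replicate 2 (edgeR adjusted p = 0.0643) or double mutant replicate 3 (edgeR adjusted p = 0.0532). The range of its adjusted p over all alternatives was 0.0133 to 0.0643.

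TOM40-1 (chromosome 3, 6967462 to 6970652, plus strand, 11 exons), the gene for the channel, had 21.0, 25.2 and 24.96 CPM in wild type and 20.3, 22.3 and 23.0 CPM in the labelled mutant libraries. The groups overlapped because wild type replicate 1 was lower than the other wild-type libraries. Its log2 fold change was -0.12 with a 95% interval of -0.31 to 0.07 (edgeR adjusted p = 0.263). Without wild type replicate 1 it passed as lower (-0.20; edgeR adjusted p = 0.0444).

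At the inner membrane, TIM17-2 (chromosome 2, 15697810 to 15699354, minus strand, 2 exons), a subunit of the presequence translocase, had 25.8, 25.5 and 27.3 CPM in wild type and 34.1, 35.8 and 35.2 CPM in the labelled mutant libraries. The groups were apart by more than the spread within either of them. Its mean rose from 26.2 ± 0.958 to 35.01 ± 0.869 CPM (SD, n = 3 each), with a log2 fold change of 0.42 ± 0.055 (SE; adjusted p by edgeR = 0.000307). TIM23-2 (chromosome 1, 27383320 to 27384524, plus strand, 1 exon), the partner of TIM17 in the channel, had 22.1, 25.5 and 24.04 CPM against 20.8, 25.1 and 22.4 CPM. The libraries of both groups were interleaved, and the log2 fold change was -0.07 with a 95% interval of -0.26 to 0.12 (edgeR adjusted p = 0.514). It was -0.02 without double mutant replicate 1 and -0.15 without double mutant replicate 2. For TIM17-2 the 95% interval was 0.29 to 0.54; the difference between the genes was not tested.

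TIM44-2 (chromosome 2, 15144795 to 15148223, minus strand, 14 exons), which ties the motor to the channel, had 17.2, 16.4 and 15.4 CPM in wild type and 17.05, 19.4 and 19.5 CPM in the labelled mutant libraries. Double mutant replicate 1 lay inside the wild-type range, and the other labelled mutant libraries lay above it. Its log2 fold change of 0.19 ± 0.07 (SE) did not pass (edgeR adjusted p = 0.0568), but passed without double mutant replicate 1 (0.24; edgeR adjusted p = 0.0242) and without wild type replicate 1 (0.23; edgeR adjusted p = 0.0426).

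TIM17-1 (chromosome 1, 7043628 to 7044592, plus strand, 1 exon) was the lowest of the 10 genes in every library, with 5, 19 and 18 counts in wild type and 9, 30 and 11 counts in the labelled mutant libraries. These are 0.103, 0.286 and 0.264 CPM against 0.11, 0.37 and 0.155 CPM. The highest and the lowest labelled mutant library differed by more than the group means did. No difference was detectable with these libraries: the log2 fold change was -0.08 with a 95% interval of -1.25 to 1.08 (edgeR adjusted p = 0.906), which spans more than 2-fold in either direction.

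**Figure D2:**
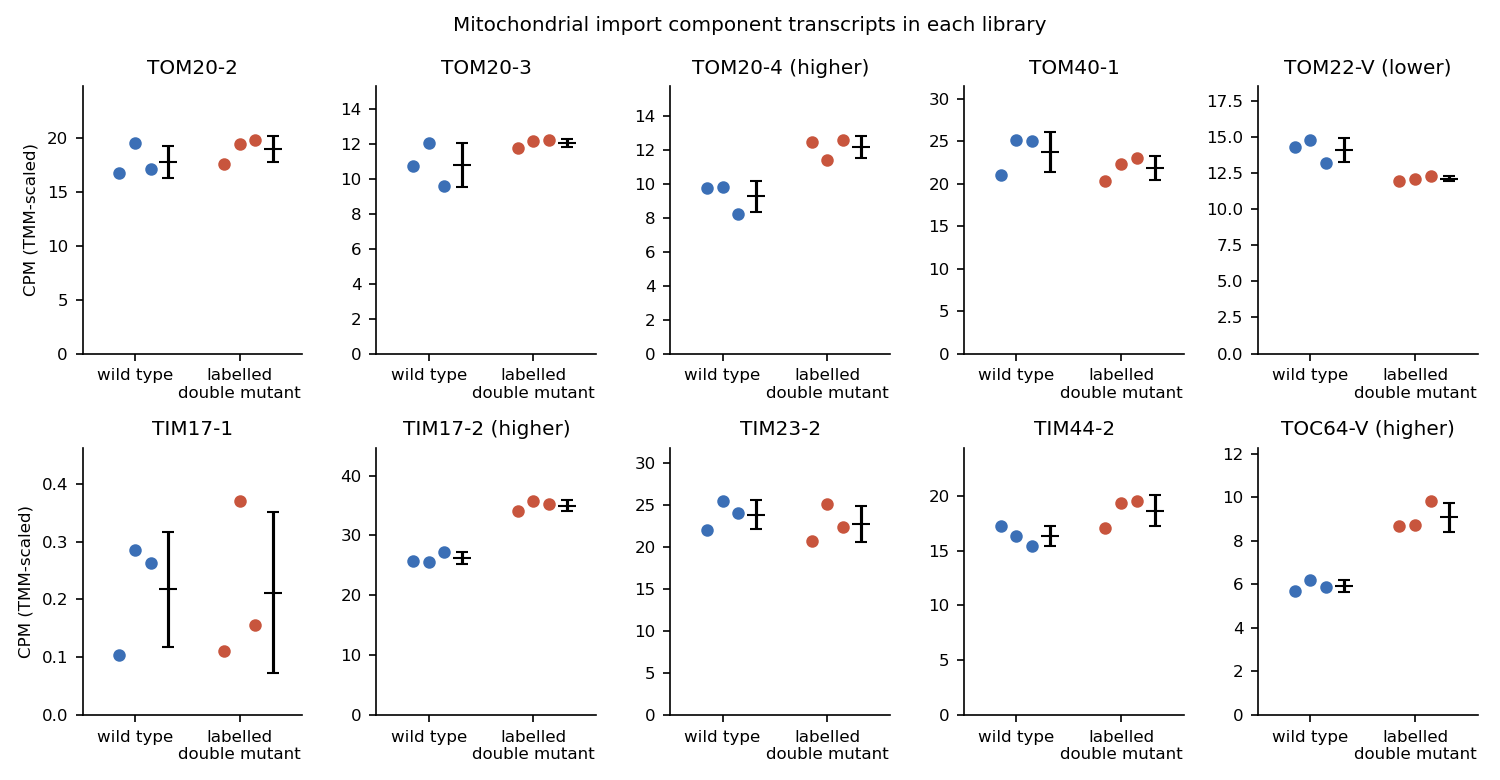
Level of each import gene in each library, in CPM (counts per 1000000) after TMM scaling (y axis, from 0 and on its own scale in each panel). Points are libraries, and the bar beside them is the mean with the SD of 3 libraries. TOC64-V, TIM17-2 and TOM20-4 stand higher and TOM22-V lower in all 3 labelled mutant libraries, and the groups overlap in the other panels.

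Levels of different genes were compared per kilobase of exon. In wild type, TIM17-2 (20.6 ± 0.752 CPM per kilobase, SD, n = 3), TOM22-V (20.2 ± 1.21) and TIM23-2 (19.8 ± 1.42) stood highest, with overlapping ranges. TOM20-2 (13.6 ± 1.13) and TOM40-1 (13.6 ± 1.35) followed, and overlapped with each other. TOM20-3 (10.3 ± 1.18) overlapped with TOM20-4 (9.71 ± 0.959). TIM44-2 (7.93 ± 0.433), TOC64-V (2.66 ± 0.12) and TIM17-1 (0.226 ± 0.103) closed the order, each apart from its neighbour. In the labelled mutant libraries TIM17-2 stood alone at the top with 27.5 ± 0.683 CPM per kilobase (SD, n = 3). TIM23-2 (18.9 ± 1.82) and TOM22-V (17.4 ± 0.223) overlapped below it. TOM20-2 (14.5 ± 0.916) came next, apart from its neighbours in the order. TOM20-4 (12.7 ± 0.689) was now in the range of TOM40-1 (12.5 ± 0.821), which overlapped with TOM20-3 (11.5 ± 0.23). TIM44-2, TOC64-V and TIM17-1 remained the last of the order, at 9.05 ± 0.674, 4.08 ± 0.293 and 0.22 ± 0.144 CPM per kilobase.

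For the genes other than TOC64-V, the balance between paralogs was examined within libraries, where library scaling has no part. The longest exact stretch that any pair of these paralogs had in common was 43 bases, between TIM44-2 and TIM44-1; for all other pairs it was at most 26 bases. In the channel family, TOM40-1 had 97.1%, 96.8% and 95.9% of the TOM40 reads per kilobase in wild type and 89.6%, 88.8% and 90.4% in the labelled mutant libraries. TOM40-2 (AT1G50400), the minor copy, made up the rest: it had 0.475, 0.633 and 0.806 CPM in wild type and 1.79, 2.15 and 1.86 CPM in the labelled mutant libraries (log2 fold change 1.58 ± 0.20, SE; adjusted p by edgeR = 0.000219). The summed TOM40 level overlapped between the groups, at 14.03 ± 1.45 against 13.9 ± 0.894 CPM per kilobase (SD, n = 3 each).

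In the TIM23 family the most abundant copy also lost share. TIM23-2 had 83.2%, 85.9% and 79.6% of the family's reads per kilobase in wild type and 73.0%, 72.7% and 71.9% in the labelled mutant libraries. TIM23-1 (AT1G17530) had 4.81, 4.64 and 6.83 CPM in wild type and 8.46, 10.04 and 9.16 CPM in the labelled mutant libraries, with a log2 fold change of 0.76 ± 0.15 (SE; adjusted p by edgeR = 0.00238). TIM23-3 (AT3G04800) had 9 to 13 counts per wild-type library and 20 to 36 per labelled mutant library (log2 fold change 1.2 ± 0.35, SE; adjusted p by edgeR = 0.0181). Its call ended when wild type replicate 2 or double mutant replicate 2 or 3 was left out, with edgeR or DESeq2 adjusted p values from 0.00552 to 0.0676 across alternatives.

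In the TIM17 family the most abundant copy gained share. TIM17-2 had 77.1%, 76.5% and 77.4% of the reads per kilobase in wild type and 84.03%, 83.99% and 83.7% in the labelled mutant libraries. TIM17-3 (AT5G11690) went from 22.1% ± 0.484 to 15.4% ± 0.495 (SD, n = 3 each) of the family, with a log2 fold change of its level of -0.23 ± 0.07 (SE; adjusted p by edgeR = 0.0309). That call ended under 7 of 11 alternatives (adjusted p 0.0242 to 0.0847). TIM17-1 had at most 1.15% of the family in any library. The summed TIM17 level was 1.23-fold higher in the labelled mutant libraries, at 32.8 ± 0.835 against 26.7 ± 0.842 CPM per kilobase (SD, n = 3 each).

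Among the TOM20 receptors, TOM20-2 had 38.2%, 40.4% and 42.3% of the reads per kilobase in wild type and 34.9%, 37.95% and 37.3% in the labelled mutant libraries. TOM20-4 had 30.4%, 27.9% and 27.7% against 33.8%, 30.5% and 32.5%, so that the lowest labelled mutant share lay just above the highest wild-type share. TOM20-1 (AT3G27070) lies 138 bases from TOM20-3 on the same strand and was the minor copy, with 0.372, 0.226 and 0.205 CPM in wild type and 0.907, 0.864 and 0.678 CPM in the labelled mutant libraries. It was higher, with a log2 fold change of 1.65 ± 0.27 (SE; adjusted p by edgeR = 0.000925), yet it remained at most 2.18% of the family. The summed TOM20 level rose 1.17-fold, from 33.8 ± 2.94 to 39.5 ± 1.08 CPM per kilobase (SD, n = 3 each), without overlap of the groups.

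For TOM22, the share of TOM22-V was 83.6%, 83.7% and 82.8% in wild type and 79.2%, 78.8% and 78.8% in the labelled mutant libraries. TOM22-I (AT1G04070) had 2.77, 2.86 and 2.71 CPM against 3.11, 3.21 and 3.28 CPM, a log2 fold change of 0.20 that did not pass (edgeR adjusted p = 0.0981). The summed TOM22 level was 24.3 ± 1.32 against 22.03 ± 0.337 CPM per kilobase (SD, n = 3 each), and every labelled mutant library was below every wild-type library. TIM44-2 had at least 98.1% of the TIM44 reads per kilobase in every library. TIM44-1 (AT2G20510) had 6 to 21 counts per library and was removed by the filter on low counts.

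The log2 ratio of paralogs was compared over 8 pairs by an exact two-sided permutation test over libraries, in which 3 against 3 cannot go below p = 0.1. For 5 pairs the groups did not overlap, each with an exact permutation p = 0.1 and an adjusted p = 0.16 over the 8 pairs. By level, 61.8% of all tested genes also had groups without overlap. The share among ratios of other gene pairs was not computed. TOM40-1 over TOM40-2 fell by 1.74 on the log2 scale, TIM23-2 over TIM23-1 by 0.85 and TOM22-V over TOM22-I by 0.42. TOM20-4 gained on TOM20-3 by 0.23, and TOM20-2 fell by 0.30 against TOM20-4. Both ratios hold TOM20-4, and each TOM20 ratio follows from the others, so the TOM20 pairs are not separate results. The groups overlapped for TOM20-2 over TOM20-3 (-0.07, exact permutation p = 0.5), TIM17-1 over TIM17-2 (-0.52, exact permutation p = 0.6) and TIM44-2 over TIM44-1 (-0.58, exact permutation p = 0.4). No pair passed a threshold of 0.05, which this design does not allow.

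**Figure D3:**
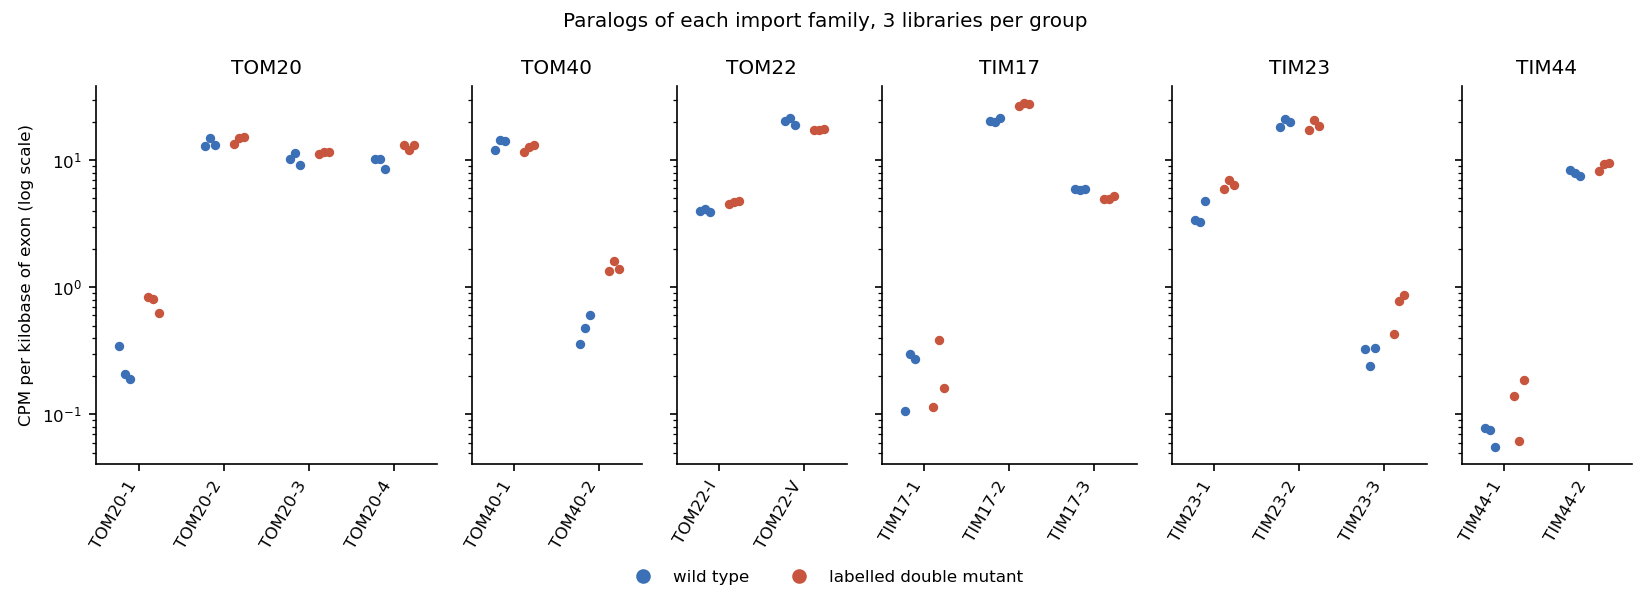
Level per kilobase of exon (y axis, log scale) of each paralog in the import families, with 3 wild-type and 3 labelled double mutant libraries as points. TOM40-2, TOM20-1, TIM23-1, TIM23-3 and TOM22-I, all less abundant copies, lie higher in all labelled mutant libraries, and TIM17-3 lies lower. TOM22-I did not pass the edgeR test, and the less abundant TIM17-1 and TIM44-1 overlap between the groups. Of the most abundant copies of each family, TOM40-1, TIM23-2, TOM20-2 and TIM44-2 overlap between the groups, TIM17-2 lies higher and TOM22-V lies lower. Of the other TOM20 copies with a high level, TOM20-4 lies higher and TOM20-3 overlaps. Among all tested genes, 32.1% lay higher and 29.8% lay lower without overlap of the groups.

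The 10 genes were set beside a wider list of 45 import genes, of which 44 were tested. In this list 13 genes were higher, 5 were lower and 26 did not pass, so 40.9% were called against 52.4% of all tested genes, and the median log2 fold change was 0.03. The import motor, which pulls proteins into the matrix, had 4 higher and no lower genes of 9 tested. Its 44.4% called compares with 52.4% of all tested genes, of which 26.3% were higher and 26.0% lower. MGE1, the nucleotide exchange factor, rose from 5.51 ± 0.13 to 10.3 ± 0.36 CPM (SD, n = 3 each). Its fitted log2 difference was 0.90 ± 0.07 (SE; adjusted p by edgeR = 1.41e-05). MTHSC70-2, an mtHSP70 chaperone that shares near-identical sequence with AT4G32208 and is therefore uncertain, had 0.79 ± 0.08 (SE; adjusted p by edgeR = 5.12e-05). PAM18-1 (AT2G35795), a J-domain partner of the chaperone, had 0.32 ± 0.07 (SE; adjusted p by edgeR = 0.00486). Their paralogs MGE2 (-0.10), MTHSC70-1 (0.21), PAM18-2 (-0.04) and PAM18-3 (-0.065) did not pass, although MTHSC70-1 passed as higher under 3 of 11 alternatives.

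In the TOM complex class 3 of 7 further genes were higher and 1 was lower, 57.1% called against the 52.4% of all tested genes. Besides TOM40-2 and TOM20-1, TOM7-2, a minor copy of a small subunit, had a log2 fold change of 0.53 (edgeR adjusted p = 0.0418), and TOM5, another small subunit, had -0.18 (edgeR adjusted p = 0.0467). The TOM7-2 groups overlapped, and its call ended under 6 of 11 alternatives (adjusted p by edgeR or DESeq2 from 0.0175 to 0.145). The TOM5 call ended under 8 of 11 (adjusted p by edgeR or DESeq2 from 0.0261 to 0.126). Among 7 further genes of the TIM22 and TIM23 translocases, TIM23-1 and TIM23-3 were higher and TIM17-3 was lower (42.9% called). Of 6 genes of the intermembrane space, TIM8, a small chaperone of hydrophobic precursors, was lower (-0.27; edgeR adjusted p = 0.0114). TIM10, of the same small chaperone family, was higher (0.23; edgeR adjusted p = 0.0466), a call that ended under 7 of 11 alternatives, and it overlaps AT2G08345 on the same strand. The share called was 33.3% in the intermembrane space. Of 3 genes for outer membrane assembly, METAXIN (AT2G19080) was higher (0.19; edgeR adjusted p = 0.0308; 33.3% of the class called), a call that ended under 6 of 11 alternatives.

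Among 7 genes that process presequences, 1 was higher, 2 were lower and 4 did not pass, 42.9% called against the 52.4% of all tested genes. The subunits of the processing peptidase, MPPALPHA1 (AT1G51980), MPPALPHA2 (AT3G16480) and MPPBETA, were among those that did not pass, at 0.07, 0.00 and 0.04 on the log2 scale. ICP55 (AT1G09300), which trims the new amino end, was higher (0.55 ± 0.08, SE; adjusted p by edgeR = 0.000428). PREP1 and PREP2, which degrade cleaved presequences in mitochondria and chloroplasts, fell in the labelled mutant libraries, by -0.74 ± 0.08 and -0.48 ± 0.08 on the log2 scale (SE; adjusted p by edgeR 8.73e-05 and 0.00145). Of 5 genes for insertion from the matrix side and later processing, OXA1, the insertase, was the only call (20.0%) and was higher (0.37 ± 0.06, SE; adjusted p by edgeR = 0.000774).

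**Figure D4:**
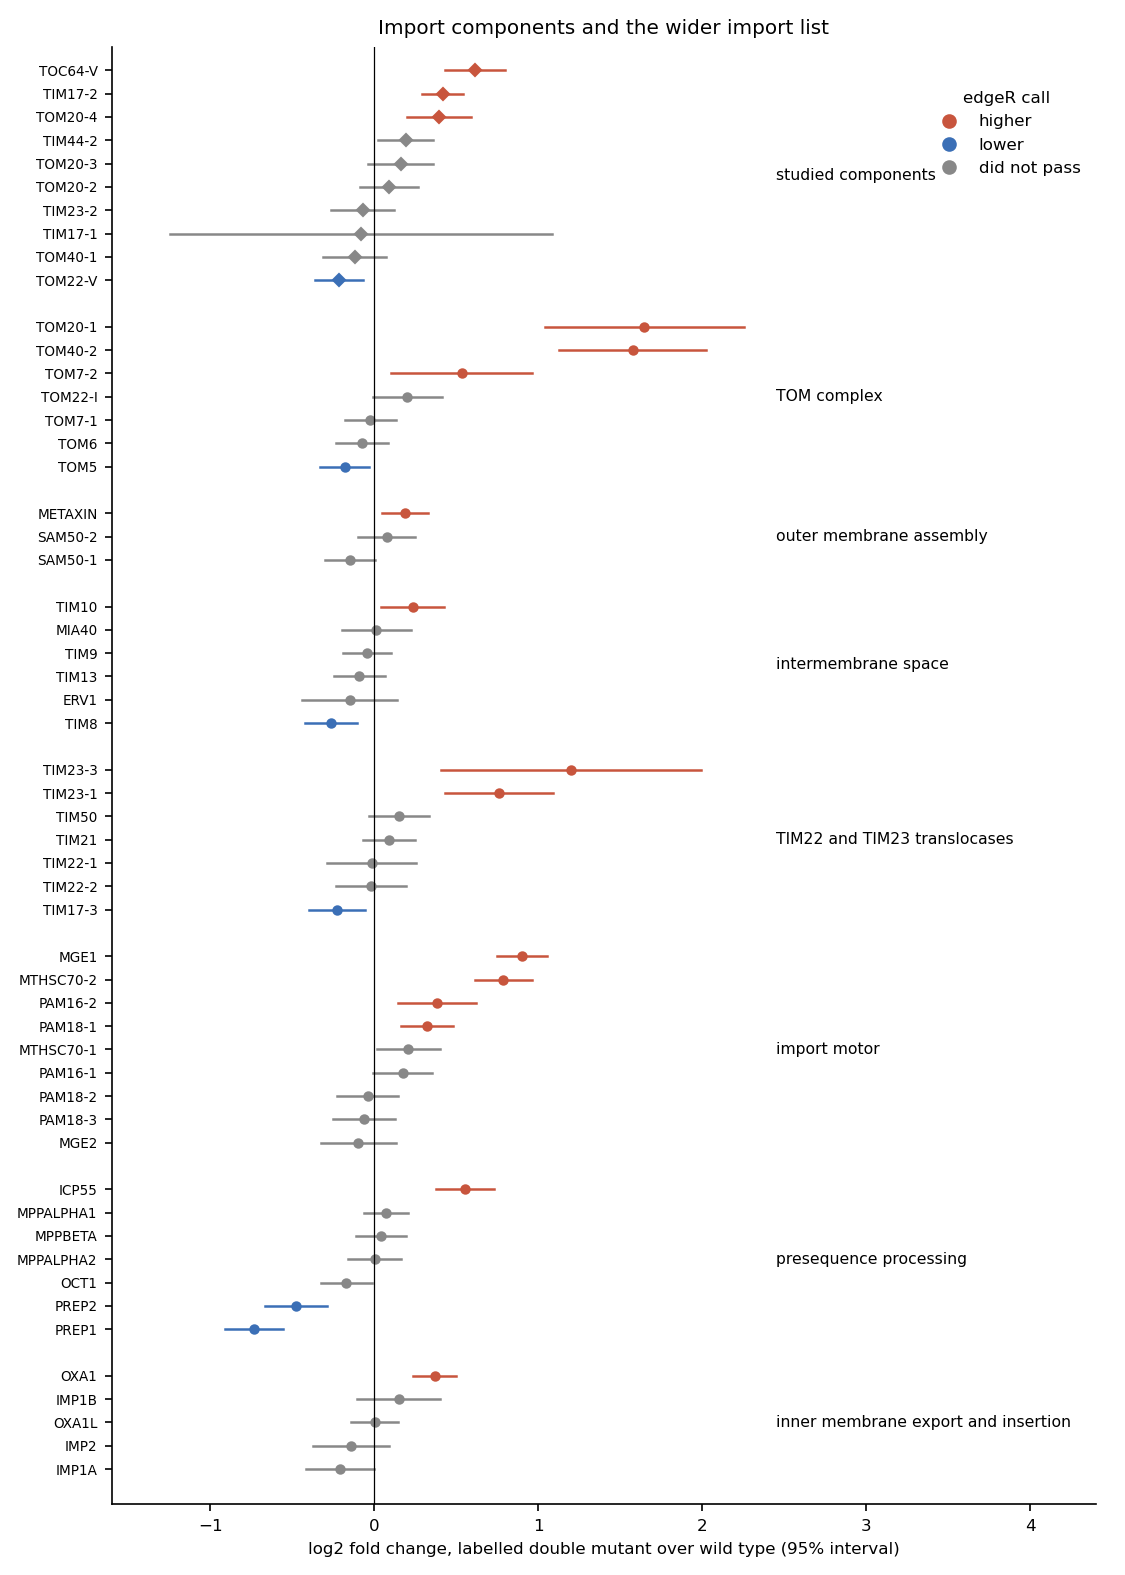
Log2 fold change of the labelled double mutant over wild type (x axis, with 95% intervals from the edgeR fit) for the 10 import genes (diamonds) and 44 tested genes of the wider import list (circles), by class. Red marks genes called higher, blue genes called lower and grey genes that did not pass. The 10 genes lie between -0.22 and 0.61, and the largest changes of the wider list are TOM20-1 at 1.65 and TOM40-2 at 1.58. Counts of these genes were low in wild type: 18, 15 and 14 for TOM20-1 and 23, 42 and 55 for TOM40-2.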

How the data were processed

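Each deposited table holds the raw counts of 1 library by gene. STAR and TAIR10 are named in the submitters' processing notes; per the file headers, featureCounts 2.0.0 counted exons by gene on the reverse strand and counted reads with several alignments at each of them. Versions of STAR and of the annotation: not given in the sources used here. Genotype labels gave the groups and titles the replicate numbers. The series text speaks of 2 biological replicates, but the titles number 3 libraries per genotype, and all 6 were used. Nothing says that libraries of a group came from separate plants or cultures, and the p-values therefore rest on the spread among libraries alone, which may be technical. All pairs within a group differed by more than sampling noise (chi-square per degree of freedom 10.9 to 38.3).

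The test was the quasi-likelihood one of edgeR 4.0.16 (R 4.3.3), after filterByExpr and TMM scaling, with no term but the group. It is two-sided, and p was adjusted by Benjamini-Hochberg over the 21805 genes tested, with a threshold of 0.05. CPM is the count per 1000000 of the TMM-adjusted total. The SE is the log2 fold change divided by the square root of F. On simulated data over 21805 genes in this comparison, the fit recovered 42% of 50 genes with a log2 change of 0.5 and 80% of 50 with a log2 change of 1. The simulation changed a far smaller share of genes than the 52.4% called in the data. The adjustment of p was therefore stricter there, and these rates do not give the share recovered in the data. DESeq2 1.42.0, its size factors, no low-count filter, nuclear genes alone, a replicate block and leaving out each library were alternatives.

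The members and lists were chosen with earlier results of these data known. The text names the 10 genes, their paralogs in the compared pairs, the targeted genes and up to 3 called genes with the smallest adjusted p per class. TOM5, MGE2, MTHSC70-1, PAM18-2, PAM18-3, the processing peptidase genes and AT5G09430 were chosen after their values were seen. AT2G42210 was dropped from the wider list because the reference names it OEP16-3. Of 32548 nuclear identifiers, 99.91% had the same coordinates in the TAIR10.1 reference, and 96.6% of gaps between exons read there opened with GT and closed with AG. Near-identical sequence means at least 95% identity over at least 50 bases (BLAST+ 2.17.0).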

Additional observations from a re-analysis of the deposited data

How the results depend on the processing

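The number of import genes called higher was 3 or 4 under all 11 alternatives, and those of all tested genes stayed within 1.5 times the main counts. The number called lower was 1 with all libraries and 0 to 2 when a library was left out: 0 when wild type replicate 2 or the labelled mutant replicate 3 was absent, and 2 without wild type replicate 1, when TOM40-1 joined TOM22-V. TOC64-V, TIM17-2 and TOM20-4 passed under all 11 alternatives, with log2 fold changes of 0.55 to 0.65, 0.395 to 0.45 and 0.31 to 0.44. TIM17-1 turned positive without wild type replicate 2 (0.14) or 3 (0.06) and without double mutant replicate 1 (0.23) or 3 (0.09), never passing, within a leave-one-out range of -0.775 to 0.23. The wider list had 13 higher genes with all libraries and 9 to 14 over the 11 alternatives. It had 5 lower genes with all libraries, 3 with the DESeq2 Wald test, 3 with the replicate block and 3 to 4 when a library was left out. AT4G15640 passed as higher without wild type replicate 2 (0.236; edgeR adjusted p = 0.0338), the top of a leave-one-out range from 0.114. Each of the 8 paralog ratios kept its direction in all 8 alternatives, but the size of the overlapping ones moved when a library was left out: TIM17-1 over TIM17-2 lay between -1.002 and -0.163, TIM44-2 over TIM44-1 between -1.06 and -0.28, and TOM20-2 over TOM20-3 between -0.11 and -0.02. MPPALPHA2, near 0, turned negative with DESeq2 size factors (-0.012), the DESeq2 Wald test (-0.011), nuclear genes alone (-0.005) and without 4 single libraries, within a leave-one-out range of -0.049 to 0.066.

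Libraries with the same replicate number did not deviate together in every pair (correlations 0.192, 0.0715 and -0.00164), so the numbers are not taken to pair them; the replicate block called 11373 genes against 11421 and changed no call among the 10 genes. TIM17-1 had at most 30 counts in any library and its libraries scattered; how much of its wide interval comes from depth was not tested. Over all genes tested, the median log2 change lay between -0.001 and 0.014 in every setting.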
